A study of Mus musculus with 12 samples.

Results

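The Toll-like receptors Tlr1 to Tlr9 and their adaptor Myd88 make up 10 of the 47642 genes listed for mIMCD3 cells, and each was found by its Ensembl gene. They were chosen by symbol, with the family selected on these same data because Tlr1 and Tlr6 were lower in both knockouts than in wild-type cells. Every value of a member against wild-type is therefore a description, given without a p-value, and tests of members are given for Pkd2-/- against Pkd1-/- cells, a comparison the choice did not use. mIMCD3 is an SV40-immortalised mouse line of the inner medullary collecting duct. The 3 groups of 4 libraries were wild-type cells (Wt), 1 Pkd1-/- clone made with CRISPR and 1 Pkd2-/- clone made with TALENs, all grown in medium with 10% serum and sampled 4 days after confluency with no other treatment. The libraries of a genotype came from 4 of 6 culture dishes of 1 line, so their spread does not include that between clones, and what belongs to a clone cannot be told apart from what belongs to the deleted gene.

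Toll-like receptors are membrane proteins that bind parts of microbes. Tlr2 works as a pair with Tlr1 or with Tlr6 on bacterial lipopeptides, Tlr4 answers to lipopolysaccharide and Tlr5 to flagellin, all at the cell surface. Tlr3, Tlr7, Tlr8 and Tlr9 sit in endosomes and bind nucleic acids. All of them except Tlr3 can signal through Myd88, which recruits Irak kinases and leads to NF-kappaB. Tlr3 uses Ticam1, and Tlr4 can use both. Epithelial cells of the kidney tubule carry several of these receptors, which are known there for the response to bacteria that ascend the urinary tract.

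Tlr1 and Tlr6 lie side by side on the minus strand of chromosome 5 in GRCm38, Tlr1 at chr5:64924679-64933563 and Tlr6 at chr5:64952031-64960097, with 18467 bases between them. The other members lie elsewhere, Tlr2 on chromosome 3, Tlr3 on 8, Tlr4 on 4, Tlr5 on 1, Tlr7 and Tlr8 on X, and Tlr9 and Myd88 on 9. The 250 bases before the start of Tlr1 (chr5:64933559-64933808) and Tlr6 (chr5:64960049-64960298), taken from RefSeq for GRCm38.p6, are shown because the levels of these neighbours were low in the same libraries. Those of Tlr2 (chr3:83841609-83841858), the partner of both, are shown for comparison. The starts are those of RefSeq, so by the GENCODE gene models 5 bases of the Tlr1 window, 49 of the Tlr6 window and 159 of the Tlr2 window lie within the gene. All 3 are on the minus strand and are written 5′ to 3′, with capitals at matches on either strand to 6 searched motifs.
Tlr1: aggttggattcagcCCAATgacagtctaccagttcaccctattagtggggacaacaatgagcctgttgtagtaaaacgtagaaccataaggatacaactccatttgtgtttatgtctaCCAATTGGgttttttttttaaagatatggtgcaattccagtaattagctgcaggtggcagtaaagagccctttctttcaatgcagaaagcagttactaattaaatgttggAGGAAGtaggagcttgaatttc
Tlr6: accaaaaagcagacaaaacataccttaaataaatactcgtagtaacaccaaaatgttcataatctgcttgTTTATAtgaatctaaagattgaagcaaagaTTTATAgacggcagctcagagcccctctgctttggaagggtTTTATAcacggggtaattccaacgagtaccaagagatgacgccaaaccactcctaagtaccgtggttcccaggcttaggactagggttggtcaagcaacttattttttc
Tlr2: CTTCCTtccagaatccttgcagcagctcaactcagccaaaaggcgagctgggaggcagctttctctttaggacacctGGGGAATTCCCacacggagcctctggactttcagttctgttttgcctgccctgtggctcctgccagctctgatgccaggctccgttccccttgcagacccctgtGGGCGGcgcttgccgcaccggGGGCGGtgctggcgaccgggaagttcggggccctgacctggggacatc
The Tlr1 window held the CCAAT box (CCAAT) 3 times, 2 of them overlapping as 1 run of capitals, and the ETS core (AGGAAG) 1 time. The Tlr6 window held the TATA box (TATAAA) 3 times on the opposite strand and none of the other motifs. The Tlr2 window held the GC box (GGGCGG) 2 times, the ETS core 1 time, and 2 overlapping matches to the NF-kappaB motif. The AP-1 motif (TGANTCA) was in none of the 3. Of 32851 RefSeq mouse windows of the same length, 33.8% held the CCAAT box, 29.5% the ETS core, 12.4% the TATA box, 32.7% the GC box, 6.75% the AP-1 motif and 3.9% the NF-kappaB motif. The Tlr1 and Tlr6 windows shared no motif of the 6, and their GC content was 39.2% and 40.4%, against 62.8% for Tlr2.

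Part of the coding sequence of Tlr1 and Tlr6 is identical, which bears on how far reads can be told apart. Of the windows of 50 bases along the longest Tlr1 transcript, 454 of 2976 (15.3%) also occur in the longest Tlr6 transcript, and none of the other 8 members shares such a window with another gene. The longest identical run is 229 bases, within coding exon sequence at chr5:64925537-64925765 in Tlr1 (coding bases 1468 to 1696 of 2385) and chr5:64953828-64954056 in Tlr6 (coding bases 1507 to 1735 of 2418), and is printed without capitals.
Tlr1 and Tlr6: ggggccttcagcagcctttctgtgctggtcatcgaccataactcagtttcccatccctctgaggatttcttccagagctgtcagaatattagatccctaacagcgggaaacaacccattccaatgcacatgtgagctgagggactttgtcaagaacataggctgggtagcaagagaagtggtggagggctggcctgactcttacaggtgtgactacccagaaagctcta
The run holds only part of the shared windows. A read that falls within it, or within another identical stretch, cannot be assigned to either gene by its sequence. How the authors' counting treated such reads is not given in the sources used here, so both values are uncertain to that extent.

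The libraries held 25966273 to 28027792 normalized counts on genes, that is, read counts divided by a library size factor and rounded to whole numbers by the authors. A read was worth between 0.8855 and 1.1275 normalized counts, and 23194317 to 30335543 reads per library were estimated from this. Pkd1 stood at 30 to 49 normalized counts in Pkd1-/- and 682 to 883 in wild-type libraries. Pkd2 stood at 3855 to 4135 in Pkd2-/- and 3438 to 4467 in wild-type libraries. The stated Pkd2 deletion holds 1499 of the 10169 exon bases of the gene (14.7%, read on GRCm38), so a value over the whole gene does not check that label. The 13 collecting duct and tubule markers summed to 71180 to 82575 (Cdh1 from 13291 to 16508, Epcam from 16445 to 23947). Of these, Gata3 was called lower in Pkd1-/- cells (42 to 56 against 176 to 248 in Wt, log2 -2.20, adjusted p = 6.34e-10, limma), Aqp2, the water channel of principal cells, was at 0 in all 12 libraries, and its regulator Avpr2 was at 0 or 1. Of 13 leukocyte markers, 5 were at 0 in all 12 libraries (Adgre1, Itgam, Tyrobp, Laptm5, Cd3e), and their summed count was 917 to 1035 in wild-type, 464 to 674 in Pkd1-/- and 781 to 871 in Pkd2-/- libraries. Most of these sums was Csf1r (381 to 941). Ptprc, with at most 5 normalized counts in any library, was called lower in Pkd1-/- cells (log2 -1.62, adjusted p = 0.0451, limma). That call was not made in 9 of 18 alternative fits. The 6 fibroblast markers summed to 28 to 54 in Wt, 87 to 101 in Pkd1-/- and 15 to 141 in Pkd2-/- libraries, with Col3a1 called higher in Pkd1-/- cells (62 to 69 against 3 to 7, log2 3.62, adjusted p = 0.00359), and the 5 endothelial markers to at most 10. The part of these markers in the values below was not tested.

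Of the 10 members, 7 reached a mean of 1 normalized count and entered the genome-wide fit, namely Tlr1 to Tlr6 and Myd88. Tlr7 was at 2 in Wt library 4, at 1 in Pkd2-/- library 3 and at 0 in the other 10 libraries. Tlr8 and Tlr9 were at 0 in all 12, as were Tlr11, Tlr12 and Tlr13, the remaining mouse receptors. A count of 0 allows up to 3 counts in a library, and this limit covers counting error only. The receptors of endosomes were thus represented by Tlr3 at this depth, and the others were not detectable above that limit.

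The levels of the 7 detected members can be compared with each other only per kb of exon. In wild-type libraries the order was Tlr2 (620 ± 26.8 normalized counts per kb, SD, n = 4), Myd88 (213 ± 9.28), Tlr4 (109 ± 12), Tlr3 (101 ± 12.7), Tlr1 (48.4 ± 6.40), Tlr5 (15.9 ± 3.91) and Tlr6 (13.4 ± 5.01). The library ranges of Tlr4 and Tlr3 overlapped, and so did those of Tlr5 and Tlr6, while all other neighbours in the order were apart. In Pkd1-/- libraries Tlr2 (572) and Myd88 (201) again led, Tlr4 (75.1) and Tlr3 (71.9) overlapped, Tlr5 (27.9) came next, and Tlr6 (1.41) and Tlr1 (1.34) were last and overlapped. In Pkd2-/- libraries the means per kb were 428 for Tlr2, 212 for Myd88, 114 for Tlr3, 78.4 for Tlr4, 26.4 for Tlr5, 6.20 for Tlr1 and 2.01 for Tlr6, with no overlap between neighbours. Tlr1 thus stood above Tlr5 in wild-type and below it in both knockouts.

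**Figure D1:**
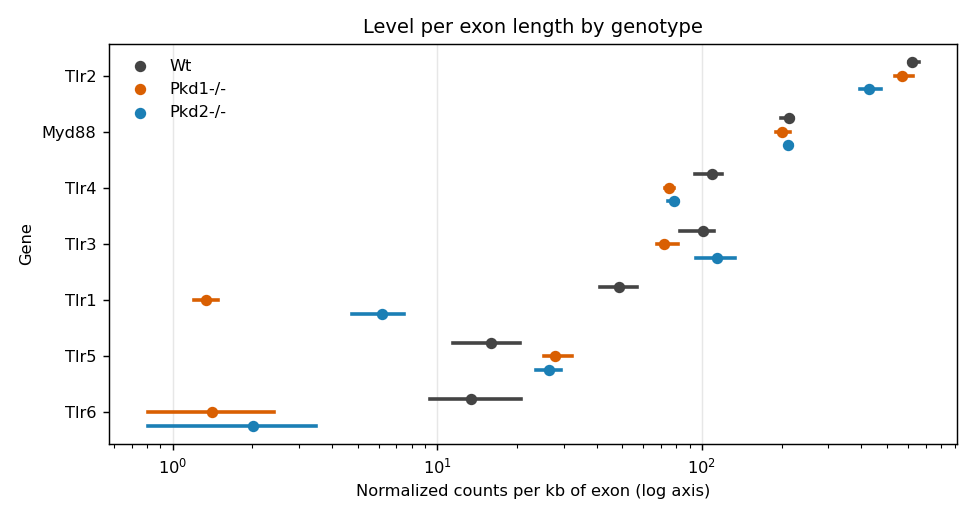
Mean level (points) and range over 4 libraries (lines) of the 7 detected members, in normalized counts per kb of exon on a log axis, for Wt, Pkd1-/- and Pkd2-/- cells. Tlr1 lies at 48.4 in Wt, 6.20 in Pkd2-/- and 1.34 in Pkd1-/- cells, and Myd88 between 201 and 213 in all 3.

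Tlr1, the receptor that pairs with Tlr2 on triacylated lipopeptides, had 158, 162, 138 and 190 normalized counts in Wt libraries 1 to 4. It had 4, 5, 5 and 4 in Pkd1-/- libraries and 21, 21, 16 and 25 in Pkd2-/- libraries. All 8 knockout libraries lay below all 4 wild-type libraries, and the 2 knockouts did not overlap each other. The Pkd1-/- mean of 4.50 ± 0.577 (SD, n = 4) was 2.78% of the wild-type mean of 162 ± 21.4, and the Pkd2-/- mean of 20.8 ± 3.69 was 12.8% of it. On the log2(normalized count + 1) scale the differences from wild-type were -4.89 ± 0.21 (SE) in Pkd1-/- and -2.91 ± 0.21 in Pkd2-/- cells. At 4 or 5 normalized counts a value stands for a handful of reads, and the added 1 draws the log2 difference towards 0. With a pseudocount of 5 in place of 1, the Pkd1-/- difference was -4.13.

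Tlr6, the other partner of Tlr2 and a receptor for diacylated lipopeptides, had 35, 47, 41 and 77 normalized counts in Wt, 5, 4, 9 and 3 in Pkd1-/- and 13, 7, 3 and 7 in Pkd2-/- libraries. The knockout libraries all lay below the wild-type ones and overlapped each other. The means were 50 ± 18.7 (SD, n = 4) in Wt, 5.25 ± 2.63 in Pkd1-/- and 7.5 ± 4.12 in Pkd2-/-, so 10.5% and 15.0% of wild-type were left. The log2 differences were -3.05 ± 0.39 (SE) and -2.66 ± 0.39. Wt library 4 had the highest value of both genes, 190 for Tlr1 and 77 for Tlr6. Without that library the differences of Tlr6 were -2.83 and -2.43.

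Between the knockouts, Tlr1 was 4.61-fold higher in Pkd2-/- than in Pkd1-/- cells, and this difference passed the test (log2 1.97 ± 0.21, SE, 95% interval 1.52 to 2.42, adjusted p = 3.42e-07, limma). Tlr6 differed by 0.39 ± 0.39 (95% interval -0.43 to 1.22, adjusted p = 0.448), so a difference of up to 1.22 on the log2 scale in favour of Pkd2-/- cells remains within its interval. Per kb, Tlr1 stood at 384% ± 93.3 (SD, n = 4) of Tlr6 in Wt, 376% ± 171 in Pkd2-/- and 110% ± 41.2 in Pkd1-/- libraries. These ratios were computed within each library, and the Pkd1-/- values of 61.9% to 149% lay below the wild-type values of 275% to 503%.

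**Figure D2:**
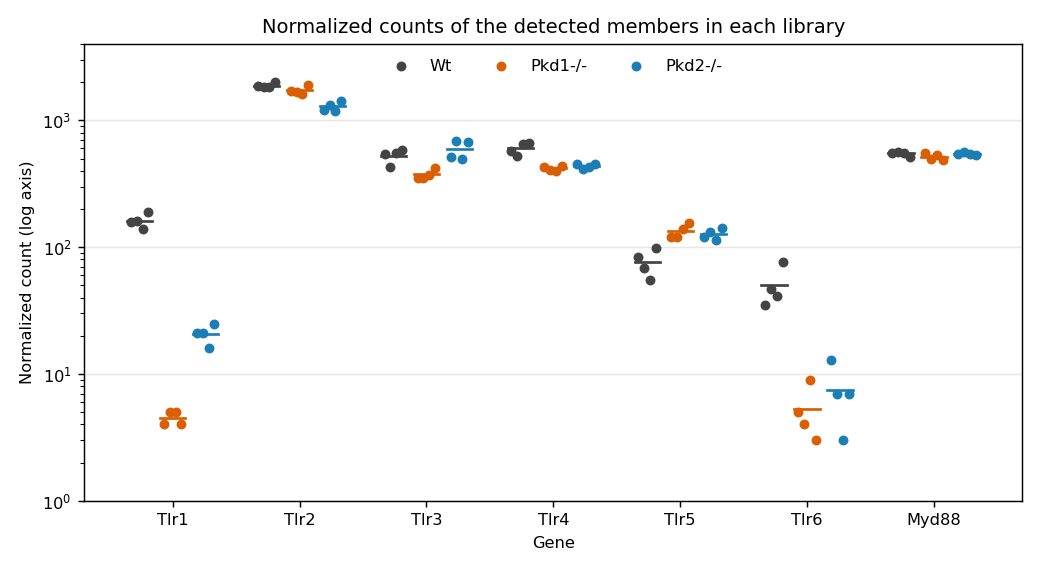
Normalized counts of Tlr1 to Tlr6 and Myd88 in each of the 12 libraries, on a log axis, with points for libraries and bars for the genotype means. The Pkd1-/- points of Tlr1 sit at 4 and 5 and the Pkd2-/- points between 16 and 25, below the Wt points from 138 to 190, while the Myd88 points of all genotypes lie between 489 and 567.

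Tlr2, the shared partner of Tlr1 and Tlr6, was the most abundant receptor. It had 1850, 1825, 1816 and 1989 normalized counts in Wt libraries, 1711, 1686, 1613 and 1883 in Pkd1-/- and 1213, 1328, 1190 and 1428 in Pkd2-/-. The Pkd1-/- libraries overlapped the wild-type ones, with a log2 difference of -0.12 ± 0.06 (SE), and the Pkd2-/- libraries all lay below both other groups. The log2 difference of Pkd2-/- from wild-type was -0.54 ± 0.06. Tlr2 was lower in Pkd2-/- than in Pkd1-/- cells (log2 -0.42 ± 0.06, adjusted p = 2.02e-05, limma), the opposite direction to Tlr1. Per kb, Tlr1 was 7.78% ± 0.732 (SD, n = 4) of Tlr2 in Wt, 0.237% ± 0.0427 in Pkd1-/- and 1.44% ± 0.169 in Pkd2-/- libraries, and Tlr6 was 2.14% ± 0.697, 0.252% ± 0.140 and 0.473% ± 0.280. Both partners were thus below Tlr2 in every library. The gap was wider in the knockouts, which is a description, since Tlr1 and Tlr6 were chosen as lower there.

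Tlr4, the receptor for lipopolysaccharide, had 575, 522, 654 and 661 normalized counts in Wt, 425, 406, 402 and 437 in Pkd1-/- and 451, 413, 427 and 452 in Pkd2-/- libraries. All 8 knockout libraries were below the wild-type ones, at 69.2% of the wild-type mean in Pkd1-/- and 72.3% in Pkd2-/- cells (log2 -0.52 ± 0.08, SE, and -0.46 ± 0.08). The knockouts overlapped and differed by 0.06 ± 0.08 (95% interval -0.10 to 0.23, adjusted p = 0.564).

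Tlr5, the receptor for flagellin, differed from wild-type in the other direction to Tlr1, Tlr4 and Tlr6. It had 84, 68, 55 and 98 normalized counts in Wt, 121, 121, 138 and 154 in Pkd1-/- and 120, 131, 113 and 141 in Pkd2-/- libraries. All 8 knockout libraries lay above all 4 wild-type libraries. The means were 1.75-fold and 1.66-fold that of wild-type (log2 0.83 ± 0.16, SE, and 0.75 ± 0.16), and the knockouts differed by -0.08 ± 0.16 (95% interval -0.41 to 0.26, adjusted p = 0.733).

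Tlr3, the endosomal receptor for viral RNA duplexes, had 545, 430, 552 and 580 normalized counts in Wt and 353, 351, 371 and 422 in Pkd1-/- libraries, and 515, 692, 496 and 678 in Pkd2-/- libraries. The Pkd1-/- libraries lay below both other groups, which overlapped. The log2 differences from wild-type were -0.49 ± 0.11 (SE) in Pkd1-/- and 0.17 ± 0.11 in Pkd2-/- cells. Tlr3 was 1.59-fold higher in Pkd2-/- than in Pkd1-/- cells (log2 0.66 ± 0.11, 95% interval 0.42 to 0.90, adjusted p = 9.79e-05).

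Myd88, the adaptor, was the steadiest of the detected members, with 555, 567, 557 and 513 normalized counts in Wt, 554, 492, 535 and 489 in Pkd1-/- and 538, 565, 545 and 536 in Pkd2-/- libraries. The 3 genotypes overlapped. The Pkd1-/- and Pkd2-/- means were 94.4% and 99.6% of the wild-type mean, with 95% intervals of the log2 difference of -0.22 to 0.05 and -0.14 to 0.13. Between the knockouts the difference was 0.08 ± 0.06 (SE, adjusted p = 0.348).

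Genes were called at an adjusted p under 0.05 and a log2 difference of at least 1, as the study did. Against wild-type, 2 of the 7 tested members were called in each knockout, Tlr1 and Tlr6, both lower. Of all 18552 genes tested, 6.24% were called in Pkd1-/- cells (2.96% higher, 3.28% lower) and 9.62% in Pkd2-/- cells (3.24% higher, 6.38% lower). Since Tlr1 and Tlr6 chose the family, nothing is read from that count. By size, Tlr6 in Pkd2-/- cells (-2.66) was the value closest to the threshold among those called, and Tlr5 in Pkd1-/- cells (0.83) among those not called. Between the knockouts 1 of the 7 was called, Tlr1, higher in Pkd2-/- cells, where 11.8% of all genes were called (4.53% higher, 7.23% lower).

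The genes around Tlr1 and Tlr6 were compared next, since the pair lies together and position was not used to choose it. The closest tested genes before the pair were Klf3, C230096K16Rik, Gm20033 and Gm26761, and after it Fam114a1, Klhl5, Wdr19 and Rfc1. Klf3, whose end is 91777 bases before Tlr1, differed from wild-type by -0.07 (adjusted p = 0.446, limma) in Pkd1-/- and 0.21 (adjusted p = 0.0101) in Pkd2-/- cells. Fam114a1, which starts 9973 bases after Tlr6, was lower in both, by log2 -0.36 (adjusted p = 0.000274) and -0.73 (adjusted p = 2.22e-08). Klhl5 differed by -0.59 and -0.82, Wdr19 by -0.63 and -0.18, and Rfc1 by -0.14 and 0.07. C230096K16Rik and Gm26761 were not called in either knockout, and Gm20033 was called lower in Pkd2-/- cells (log2 -1.05, adjusted p = 0.00076). The furthest from wild-type of the 8 was Gm20033 at -1.05, and the smallest difference of Tlr1 and Tlr6 was -2.66. Since the pair was chosen for its low values in both knockouts, this contrast is a description and tests nothing.

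Within 1 Mb of the pair, 1 of 32 tested genes was called in Pkd1-/- and 1 of 32 in Pkd2-/- cells, both lower, and their median log2 differences were -0.36 and -0.06. Within 5 Mb, 6 of 61 were called in Pkd1-/- cells (1 higher, 5 lower) and 9 of 61 in Pkd2-/- cells (4 higher, 5 lower). Their log2 differences ran from -5.97 to 1.13 in Pkd1-/- and from -5.57 to 2.27 in Pkd2-/- cells. The lowest in each knockout was thus further below wild-type than Tlr1 and Tlr6. Of all genes 6.24% and 9.62% were called, and of 1300 tested genes on chromosome 5, 94 and 106. In windows of 10 Mb, each with at least 20 tested genes and chosen after the values were seen, the median in Pkd1-/- cells ranged from -0.36 to -0.11 over the first 100 Mb of chromosome 5, with -0.34 in the window from 60 to 70 Mb that holds the pair. From 100 to 130 Mb it was -0.10, 0.19 and -0.36, and from 130 to 150 Mb 0.21 and 0.26. In Pkd2-/- cells the same windows over the first 100 Mb lay between -0.20 and 0.15. The part of these medians in the -4.89 of Tlr1 and -3.05 of Tlr6 was not tested.

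**Figure D3:**
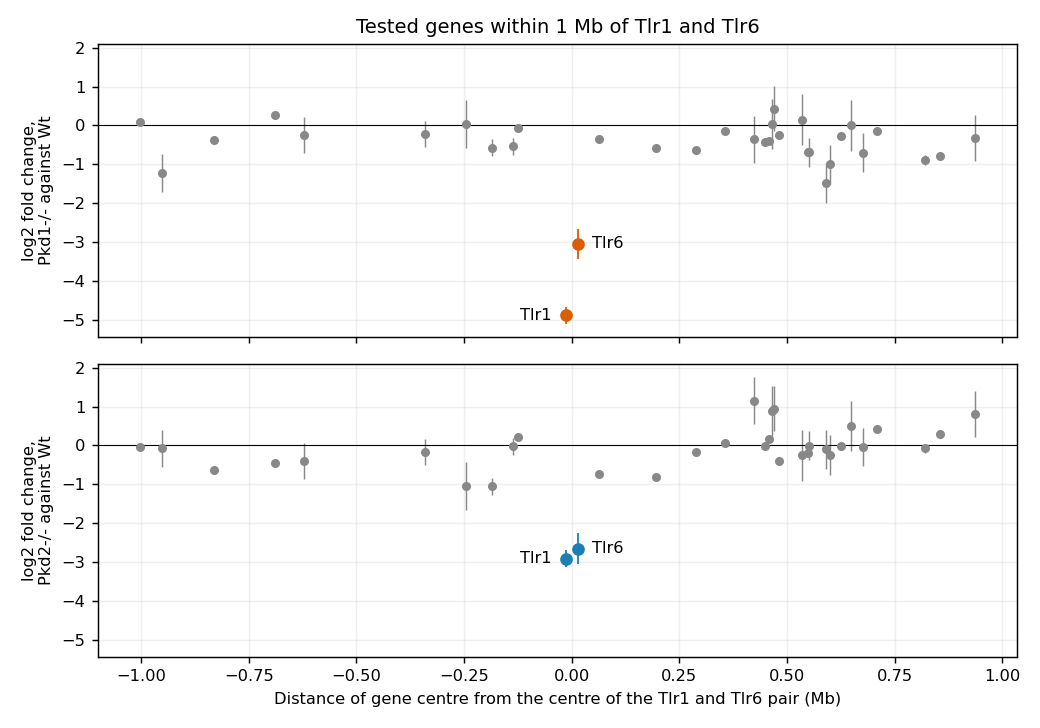
Log2 difference from Wt (± SE) of tested genes within 1 Mb of Tlr1 and Tlr6, by distance in Mb from the centre of the pair, for Pkd1-/- (upper) and Pkd2-/- cells (lower). Tlr1 and Tlr6 lie at -4.89 and -3.05 above and -2.91 and -2.66 below, while the 32 other genes lie between -1.48 and 1.15.

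Over the 12 libraries, the genes whose log2 values followed Tlr1 most closely were Wdr1 (Pearson r = 0.996), Mylk (0.994), Efnb2 (0.993), B4galt6 (0.989) and Plcb1 (0.989), among 13702 genes averaging 10 or more normalized counts. They share the order Wt above Pkd2-/- above Pkd1-/-, with means in that order of 10520, 8949 and 7920 for Wdr1 and 423, 14.0 and 1.00 for Plcb1. The genes most like Tlr6 were Pxdc1 (0.963), Tyw1 (0.961), Ptprg (0.959), Timp2 (0.953) and Nit2 (0.951). Tlr6 ranked 197th in likeness to Tlr1 and Tlr1 69th in likeness to Tlr6 (r = 0.910). The points are 3 groups of 4 libraries, so r mainly follows the genotype means, and it is given as a description.

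The 52 other genes of the pathway, listed by role, were not used to choose the members. Of these, 47 were tested. Against wild-type, 2 were called in Pkd1-/- cells, both higher, and 4 in Pkd2-/- cells, 1 higher and 3 lower. Of all genes, 6.24% were called in Pkd1-/- cells (2.96% higher) and 9.62% in Pkd2-/- cells (3.24% higher, 6.38% lower). At an adjusted p alone, 20 and 25 of the 47 passed, where 27.1% and 42.3% of all genes did. Their median log2 difference was 0.05 and 0.00. Between the knockouts 6 were called, 1 higher and 5 lower in Pkd2-/- cells, beside 11.8% of all genes (4.53% higher, 7.23% lower). At an adjusted p alone 25 passed, beside 46.3% of all genes.

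Among the coreceptors and chaperones, the largest difference was that of Unc93b1, which escorts the endosomal receptors out of the endoplasmic reticulum. It had 5, 9, 13 and 8 normalized counts in Wt, 178, 185, 204 and 214 in Pkd1-/- and 8, 13, 5 and 14 in Pkd2-/- libraries. The Pkd1-/- libraries stood far above both other groups, which overlapped (log2 4.39 ± 0.30, SE, adjusted p = 1.84e-09, limma, against wild-type). Of the endosomal members, Tlr7, Tlr8 and Tlr9 were at 0 in all Pkd1-/- libraries, and Tlr3 was lowest in the same libraries. Cd14 and Ly96, which hand lipopolysaccharide to Tlr4, differed by log2 -0.34 (adjusted p = 0.00461) and -0.50 (adjusted p = 0.0029) in Pkd1-/- cells. In Pkd2-/- cells the differences were -0.39 (adjusted p = 0.00101) for Cd14 and -0.27 (adjusted p = 0.0723) for Ly96. Cd36, a coreceptor of the Tlr2 pairs, had at most 5 normalized counts in any library. Hsp90b1, the folding chaperone of most Toll-like receptors, was higher in both knockouts, by 0.24 (adjusted p = 0.0076) and 0.58 (adjusted p = 5.97e-07).

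Among the adaptors other than Myd88, Tirap, which bridges Tlr2 and Tlr4 to Myd88, differed by -0.01 in Pkd1-/- and 0.18 in Pkd2-/- cells and did not pass the test in either. Ticam1, the adaptor of Tlr3, was lower in Pkd1-/- cells (log2 -0.22, adjusted p = 0.0438), and differed by -0.07 in Pkd2-/- cells (adjusted p = 0.497). Ticam2, which links Tlr4 to Ticam1, had at most 3 counts in any library. Sarm1, an inhibitory member of the adaptor group, was called in both knockouts in opposite directions, with 11 to 17 normalized counts in Wt, 30 to 51 in Pkd1-/- and 4 to 8 in Pkd2-/- libraries (log2 1.25, adjusted p = 0.00242, and -1.22, adjusted p = 0.00173). The call in Pkd2-/- cells was not made with a pseudocount of 5.

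Of the 18 tested kinases and ubiquitin enzymes none was called in any of the 3 comparisons, by limma at both thresholds. Of all genes 6.24%, 9.62% and 11.8% were called, so a count of 0 among 18 is not read as a result. At an adjusted p alone 5 passed in Pkd1-/- and 6 in Pkd2-/- cells against wild-type and 9 between the knockouts. Of all genes 27.1%, 42.3% and 46.3% passed at an adjusted p alone. At an unadjusted p under 0.05 the counts were 7, 10 and 9, beside 6812, 8955 and 9587 of all 18552 genes. Irak1 and Irak4, the kinases that bind Myd88, differed by 0.06 and -0.24 in Pkd1-/- and by 0.00 and -0.19 in Pkd2-/- cells, all without passing. Irak2 was lower in Pkd1-/- cells (log2 -0.63, adjusted p = 0.00134) and 0.33 apart in Pkd2-/- cells (adjusted p = 0.0561). Traf6, the ubiquitin ligase after the Irak kinases, was higher in Pkd2-/- cells (log2 0.58, adjusted p = 1.2e-06) and differed by -0.03 in Pkd1-/- cells (adjusted p = 0.798).

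Of the 8 transcription factors, 2 were called against wild-type, both in Pkd2-/- cells, where 9.62% of all genes were. Irf5, which acts after Myd88, had 19 to 26 normalized counts in Pkd2-/-, 53 to 96 in Wt and 80 to 113 in Pkd1-/- libraries (log2 -1.82 in Pkd2-/-, adjusted p = 5.67e-07). Irf7, which acts after the endosomal receptors and is itself induced by interferon, had 600 to 750 in Pkd2-/-, 284 to 390 in Wt and 150 to 197 in Pkd1-/- libraries (log2 1.08, adjusted p = 1.36e-07, in Pkd2-/- and -0.92, adjusted p = 2.39e-06, in Pkd1-/-). Of the 10 inhibitors, Irak3 was called lower in Pkd2-/- cells, with 2 to 9 normalized counts against 7 to 17 in Wt (log2 -1.48, adjusted p = 0.0101), a call not made with a pseudocount of 5. Tollip differed by -0.10 and -0.05 and did not pass, Tnfaip3 was lower in both (log2 -0.31 and -0.28), and Nfkbia was lower in Pkd1-/- (-0.16, adjusted p = 0.0191) and higher in Pkd2-/- cells (0.30, adjusted p = 7.28e-05).

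**Figure D4:**
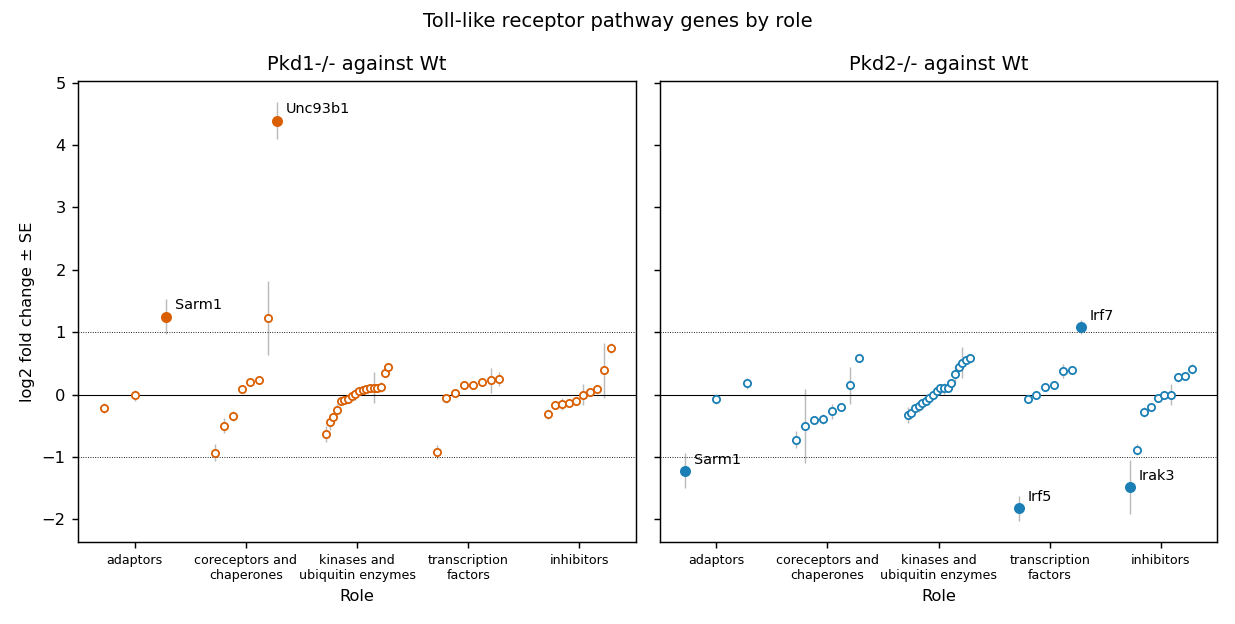
Log2 difference from Wt (± SE) of the 47 tested pathway genes, by role, in Pkd1-/- (left) and Pkd2-/- cells (right), with filled points for called genes and dotted lines at a log2 difference of 1 in either direction. Unc93b1 at 4.39 and Sarm1 at 1.25 are called on the left, and Sarm1, Irf5, Irf7 and Irak3 on the right.

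Targets of the pathway were described from lists as well. Of 14 tested NF-kappaB target genes, 3 were called in Pkd1-/- (1 higher, 2 lower) and 1 in Pkd2-/- cells (lower), beside 6.24% and 9.62% of all genes. At an adjusted p alone, 6 passed in Pkd1-/- (3 higher, 3 lower) and 8 in Pkd2-/- cells (7 higher, 1 lower). Of all genes 27.1% and 42.3% did so, with 3719 of 18552 higher in Pkd2-/- cells. The median log2 difference of the 14 was -0.26 and 0.41. Lcn2, an iron-binding defence protein, had 558 to 710 normalized counts in Pkd1-/-, 2616 to 2954 in Wt and 4334 to 5249 in Pkd2-/- libraries (log2 -2.20, adjusted p = 1.57e-13, and 0.78, adjusted p = 1.15e-07). Cxcl5 was called higher (1.11) and Ccl2, at most 7 counts, lower in Pkd1-/- cells, and the adhesion gene Vcam1 lower in Pkd2-/- cells (-1.35). Cxcl5 was not called without Wt library 1 or Wt library 2, with 0.92 to 1.30 over all alternatives, and Ccl2 was not called with a pseudocount of 5 or without any of 6 single libraries.

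Of 12 genes listed as interferon targets, all tested, 6 were called lower in Pkd1-/- cells and 6 higher in Pkd2-/- cells, against shares of 3.28% and 3.24% of all genes. Between the knockouts 10 of 12 were called, each higher in Pkd2-/- cells, beside 4.53% of all genes called higher. Ifnb1, which is in the list but encodes an interferon itself, was among the 10. It was at 0 in all 4 Pkd1-/- libraries and 1 to 4 in Pkd2-/- libraries. Its call was not made with a pseudocount of 5 or without Pkd2-/- library 1 or 3. Ifit3 was lower in both knockouts (log2 -0.58 in Pkd2-/- cells, adjusted p = 1.18e-08). Mx1, Rsad2, Usp18 and Mx2 were the furthest from wild-type of this list in Pkd1-/- cells. Mx1 was at 0 in all 4 Pkd1-/- libraries and at 9 to 33 in Wt libraries, at least 6.67-fold lower by the limit of 3 counts. Rsad2 had 12 to 29 in Pkd1-/-, 162 to 314 in Wt and 215 to 280 in Pkd2-/- libraries, and Usp18 had 56 to 85, 242 to 341 and 622 to 814. Tlr3 was the member with the same order of genotypes as Usp18 and Mx2, lowest in Pkd1-/- and highest in Pkd2-/- cells by mean, although its Pkd2-/- and Wt libraries overlapped.

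**Figure D5:**
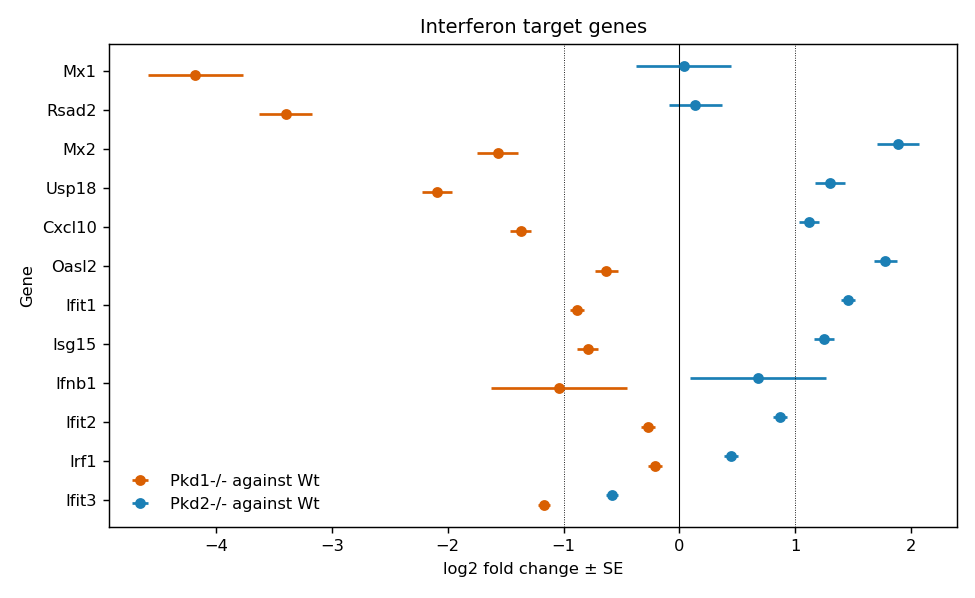
Log2 difference from Wt (± SE) of the 12 genes listed as interferon targets, in Pkd1-/- and Pkd2-/- cells, with dotted lines at a log2 difference of 1 in either direction. Usp18 lies at -2.09 in Pkd1-/- and 1.30 in Pkd2-/- cells, and the Mx1 value in Pkd1-/- cells is fitted against libraries at 0, so its size depends on the added 1.

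The interleukin-1 receptors, which signal through the same adaptor Myd88, were compared as the nearest family. None of 6 tested was called by limma in Pkd1-/- cells, where 1 had an unadjusted p under 0.05, and 3 were called lower in Pkd2-/- cells (Il18r1, Il18rap, Il1rl1), where 6.38% of all genes were. These 3 genes lie side by side on chromosome 1, Il1rl1 at chr1:40429570-40465415, Il18r1 at chr1:40465552-40500854 and Il18rap at chr1:40515362-40551705. Il1r1 and Il1r2, on the same chromosome, were not called there. Il18rap and Il1rl1 had at most 9 and 8 normalized counts in any library and were not called with a pseudocount of 5, and Il1rl1 was also not called without Wt library 1, Wt library 2, Pkd2-/- library 3 or Pkd2-/- library 4. Il18r1 had 10 to 13 normalized counts in Pkd2-/- against 63 to 112 in Wt and 88 to 114 in Pkd1-/- libraries (log2 -2.91, adjusted p = 5.15e-10). Tlr1 and Tlr6 were therefore low in both clones and Il18r1 in the Pkd2-/- clone, where the difference between clones also passed the test (log2 -2.98, adjusted p = 2.74e-10).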

How the data were processed

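RNA of 12 libraries of mIMCD3 cells was sequenced by the authors, 4 each of Wt, Pkd1-/- and Pkd2-/- cells. The authors trimmed reads with Trim Galore, aligned them to mm10 with HISAT2, tallied reads per gene using htseq-count, and scaled the tallies by DESeq2 size factors. The values that the authors deposited are therefore normalized counts, rounded to whole numbers and treated here as a score. What 1 read is worth was read from the gaps between low values in each library. Where it is below 1, whole reads cannot be recovered, so tests that model read counts were not run. All 12 columns were used and 0 were left over. Groups were taken from the genotype labels.

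Log2(normalized count + 1) was fitted for the 18552 genes averaging 1 or more, in 1 model of all 12 libraries with limma 3.58.1 (lmFit, eBayes with a variance trend, two-sided, R 4.3.3), without covariates. The Benjamini-Hochberg adjustment ran over all genes tested, within each of 3 comparisons. Where nothing says that dishes are independent cultures of separate origin, p-values measure the spread between these dishes. On simulated data the fit recovered 79.4% of 97 changed genes in Pkd1-/- against wild-type and 87.4% of 95 in Pkd2-/- against wild-type, among 17958 genes, with 5 and 3 other genes called. The simulation gave every gene the same small dispersion and used a few set sizes of change. In the real data the spread differs between genes, so these rates check the code and do not measure the error of the calls.

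The members and gene lists were chosen with earlier results of these data known. Named genes are the members, the other mouse receptors, 15 adaptors, coreceptors, kinases and inhibitors by name, up to 4 called genes furthest from wild-type in each list, the 4 closest tested genes on each side of Tlr1 and Tlr6, the 5 genes most like each of the pair by Pearson r, and Pkd1 and Pkd2. Genes named as cell markers were chosen after their values were seen. Positions and exon lengths come from GENCODE M21 for GRCm38, where 47223 gene identifiers were found, and promoter windows from RefSeq for GRCm38.p6, where 8 of 10 members matched. The authors' strand setting is not given in the sources used here. The fit was repeated with pseudocounts of 0.5 and 5, with the filter removed or raised to a mean of 10, with a replicate block, with only the 2 genotypes compared, after scaling to equal upper quartiles, with the adjusted p alone, and without each library in turn. Pandas 2.3.3 and matplotlib 3.10.9 were used for tables and plots.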

Additional observations from a re-analysis of the deposited data

Results flagged for a closer look

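Tlr1 differed between the knockouts by log2 1.97, higher in Pkd2-/- than in Pkd1-/- cells. Unc93b1 differed between them by -4.25 (adjusted p = 9.53e-10, limma), lower in Pkd2-/- cells. Cd36 differed by -1.73 (adjusted p = 0.0213), but had at most 5 normalized counts in any library, and it was not called without Pkd1-/- library 1 or with a pseudocount of 5. In 3 of 66 groups of 4 libraries 1 library stood apart from the rest, where chance gives about 1 in 20. These were Tlr7 in Wt (2 in library 4, 0 in the others), Tlr7 in Pkd2-/- (1 in library 3) and Ticam2 in Wt (3 in library 4), all within the 3 counts that a value of 0 allows.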

How the results depend on the processing

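Under the 19 alternatives that kept the fold change threshold, Tlr1 was called between the knockouts. Without that threshold 3 members passed between the knockouts. Against wild-type 5 did so in Pkd1-/- and 5 in Pkd2-/- cells, which is a description only, since Tlr1 and Tlr6 are among them and chose the family. The pathway genes called then were 20, 25 and 25, the genes within 5 Mb of Tlr1 and Tlr6 21, 24 and 29, and all genes 5020, 7852 and 8588. A pseudocount of 5 left 2 pathway genes called in Pkd2-/- cells (Irf5, Irf7), and 5 of the genes within 5 Mb in Pkd2-/- cells against either other genotype. A minimum mean of 10 normalized counts, with fewer genes tested, gave 739 calls in Pkd1-/- cells and 5 genes within 5 Mb in Pkd2-/- cells against either other genotype. At the same upper quartile the Tlr4 difference between the knockouts was -0.01. Leaving out 1 library, Myd88 in Pkd2-/- against wild-type ran from -0.04 to 0.01.

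The replicate numbers were not used to pair the libraries in the main fit. Correlations of deviations ran from -0.07 to 0.20 for the same number and from -0.20 to 0.11 for different numbers. Among libraries numbered 4 they were 0.09 for Wt with Pkd1-/-, 0.20 for Wt with Pkd2-/- and 0.17 between the knockouts. What these libraries may share was not tested. With the replicate numbers as a block, 1170, 1790 and 2183 genes were called, and the members called were 2, 2 and 1, as without the block. At 3 to 25 normalized counts, the knockout levels of Tlr1 and Tlr6 rest on few reads, and the Tlr6 difference between the knockouts had a 95% interval of -0.43 to 1.22. The libraries of a knockout come from 1 clone, so clone and genotype cannot be told apart.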
